A study of Homo sapiens with 6 samples.

Results

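The genes described here encode the proteasome, the large protease of the cytosol and nucleus, together with its activators and the chaperones that assemble it. They were chosen by symbol: every array probe annotated to PSMA, PSMB, PSMC, PSMD, PSME, PSMF or PSMG followed by a number was taken. Of 48799 probes with values, 71 carried such a symbol, and 66 of these belonged to 43 proteasome genes. A probe was kept where 3 or more of the 6 arrays gave it a detection p-value under 0.01. That left 56 probes of 40 proteasome genes among the 13423 probes kept from the whole array. All 56 were detected on all 6 arrays, whereas the nearest probes outside the limit were a further PSMB8 probe, detected on 2 arrays, and a further PSME1 probe, detected on 1. The other 8 probes left out were detected on 0 arrays. They include the only probes of PSMA8, the alpha subunit of the testis proteasome, of PSMB11, the beta subunit of the thymus proteasome, and of the inhibitor PSMF1.

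The cells were RWPE-1, an immortalised, non-tumorigenic line of human prostate epithelium. They were transfected in triplicate with 100 nM of LNA-205, a locked nucleic acid antisense to the microRNA miR-205, or with 100 nM of LNA-Scr, a scrambled oligomer, and gene expression was read 72 h later. Arrays A, B and C are LNA-Scr and arrays D, E and F are LNA-205, so each group holds 3 arrays and every culture received an oligomer. Because all arrays come from 1 line, the p-values measure the spread between transfections of that line. The arrays read long RNA and give no value for mature miR-205, so the extent of its inhibition was not measured here. The microRNA that LNA-205 is directed against is shown because it defines the treatment. Its mature form lies at chr1:209432166-209432187 on the plus strand of GRCh38.p14 (RefSeq), and the capitals mark the seed, bases 2 to 8.
hsa-miR-205-5p: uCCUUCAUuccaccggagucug

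The proteasome consists of a barrel, the 20S core, and caps that feed it. The core is built of outer alpha rings, which gate the channel, and inner beta rings, in which PSMB5, PSMB6 and PSMB7 carry the cutting sites. The usual cap, the 19S particle, recognises ubiquitin chains through its non-ATPase subunits and unfolds substrates with a ring of ATPases. Interferon induces the alternative subunits PSMB8, PSMB9 and PSMB10, which replace PSMB5, PSMB6 and PSMB7 in the immunoproteasome, and it also induces PSME1 and PSME2, the subunits of the PA28 activator. Both changes favour peptides that class I molecules can present.

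Of the 5 interferon-inducible members, 4 hold the same short sequence near their start sites, and it is shown because it is a feature of these genes that does not depend on the array values. RefSeq windows of 300 bases (GRCh38.p14, from 250 bases before a start to 50 after it) were found for 35 of the 40 genes and were searched on both strands for GAAANNGAAA, the core of an interferon response element. PSMA4, PSMB4, PSMB8, PSMB10, PSME1 and PSME2 held it, which is 6 of 35 genes (17.1%), against 1195 of 27305 genes with a window (4.38%). The exact run GAAAGCGAAA, a form of the same motif and so counted in it, was present in PSMB8, PSMB10, PSME1 and PSME2, or 4 of 35 (11.4%), against 34 of 27305 genes (0.125%). That exact form was chosen after the windows were seen, as the most frequent among the members. PSMB9, also inducible, has a window with neither form, and PSMA4 and PSMB4, which are constitutive, hold the looser one. The windows below are written on the strand of the gene, with the match in capitals. It reads GAAAGCGAAA in PSMB10 and PSME2, and its complement TTTCGCTTTC in PSMB8 and PSME1. PSMB8 has a second window, which lacks the motif. The windows are chr6:32843998-32844297 (minus strand) for PSMB8, chr16:67936801-67937100 (minus strand) for PSMB10, chr14:24135944-24136243 (plus strand) for PSME1 and chr14:24146561-24146860 (minus strand) for PSME2.
PSMB8: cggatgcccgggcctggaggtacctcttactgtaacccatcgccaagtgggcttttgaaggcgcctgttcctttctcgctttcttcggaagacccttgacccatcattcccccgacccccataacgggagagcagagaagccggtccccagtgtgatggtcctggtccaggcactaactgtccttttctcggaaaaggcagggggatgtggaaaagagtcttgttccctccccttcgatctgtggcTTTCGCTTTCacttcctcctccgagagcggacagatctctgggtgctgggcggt
PSMB10: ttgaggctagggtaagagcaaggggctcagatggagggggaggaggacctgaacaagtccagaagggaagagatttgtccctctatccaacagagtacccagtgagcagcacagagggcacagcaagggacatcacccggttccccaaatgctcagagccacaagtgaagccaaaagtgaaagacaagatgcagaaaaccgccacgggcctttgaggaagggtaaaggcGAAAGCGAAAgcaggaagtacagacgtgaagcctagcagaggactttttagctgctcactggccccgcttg
PSME1: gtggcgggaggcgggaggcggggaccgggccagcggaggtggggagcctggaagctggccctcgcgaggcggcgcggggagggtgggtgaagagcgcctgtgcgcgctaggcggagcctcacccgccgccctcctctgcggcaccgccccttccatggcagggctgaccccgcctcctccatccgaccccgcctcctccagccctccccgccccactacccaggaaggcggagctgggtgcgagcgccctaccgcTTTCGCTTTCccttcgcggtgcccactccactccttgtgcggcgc
PSME2: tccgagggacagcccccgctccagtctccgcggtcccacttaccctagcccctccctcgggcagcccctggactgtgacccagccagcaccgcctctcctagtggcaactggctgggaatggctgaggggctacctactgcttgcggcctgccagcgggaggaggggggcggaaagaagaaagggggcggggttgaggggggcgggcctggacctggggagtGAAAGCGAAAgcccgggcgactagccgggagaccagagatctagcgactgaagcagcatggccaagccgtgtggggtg
The match begins 4 bases before the start in PSMB8, 21 before it in PSMB10, 28 before it in PSME2 and 5 after it in PSME1. In the RefSeq gene order, PSMB8 lies between TAP2 and TAP1 on chromosome 6, with PSMB9 beyond TAP1, and PSME1 and PSME2 are separated only by EMC9 on chromosome 14.

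Between 12585 and 14195 probes were detected per array, and the median unnormalized intensity, on the linear scale, lay between 217 and 226.5. The basal keratins KRT5 and KRT14 were detected on all 6 arrays. Of 11 basal epithelial markers, 9 had an annotated probe and all 9 were kept. Of 9 luminal prostate markers, 7 had an annotated probe, and only KRT8 and KRT18 were kept. CD14 and CD68 were kept of 8 immune markers, and ACTA2 of 10 stromal and endothelial markers, all with an annotated probe. None of these markers passed an adjusted p of 0.05 between the groups in limma's test, and only TRIM29, a basal marker, had an unadjusted p under 0.05. Its log2 difference, LNA-205 minus LNA-Scr, was 0.26 (SE 0.10), and 0.21 at its second probe. The differences were 0.12 for KRT5, -0.15 for KRT15, -0.12 for LAMB3, 0.04 for KRT8, 0.16 for ACTA2, and -0.28 and 0.05 at the 2 probes of KRT18. The immune marker PTPRC and the luminal marker KLK3 did not pass the detection filter. Proteasome probes were bright, with mean log2 normalized intensities from 8.83 to 14.66 and a median of 12.30, against a median of 9.82 over all kept probes.

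No proteasome probe differed between LNA-205 and LNA-Scr after adjustment over all 13423 probes. The largest differences were higher mean values with LNA-205 for PSME2, for 1 of 3 probes of PSMB8 and for 1 of 2 probes of the ATPase PSMC1, none above 1.26-fold. The lowest ratio was that of PSMC3, another ATPase, at 1.10-fold below the control. In limma's test 0 of 56 probes passed an adjusted p of 0.05, and 0% of all probes tested did. At an unadjusted p under 0.05 there were 3 of 56 proteasome probes (5.36%), against 834 of all 13423 (6.21%), so the members' share was close to the background. All 3 were higher with LNA-205, as were 3.19% of all probes at this limit, and none was lower, as were 3.02%. The members' count at this limit was 0 without LNA-Scr B, 0 without LNA-205 D and 6 without LNA-Scr A. The share of all probes was not counted in these settings.

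**Figure D1:**
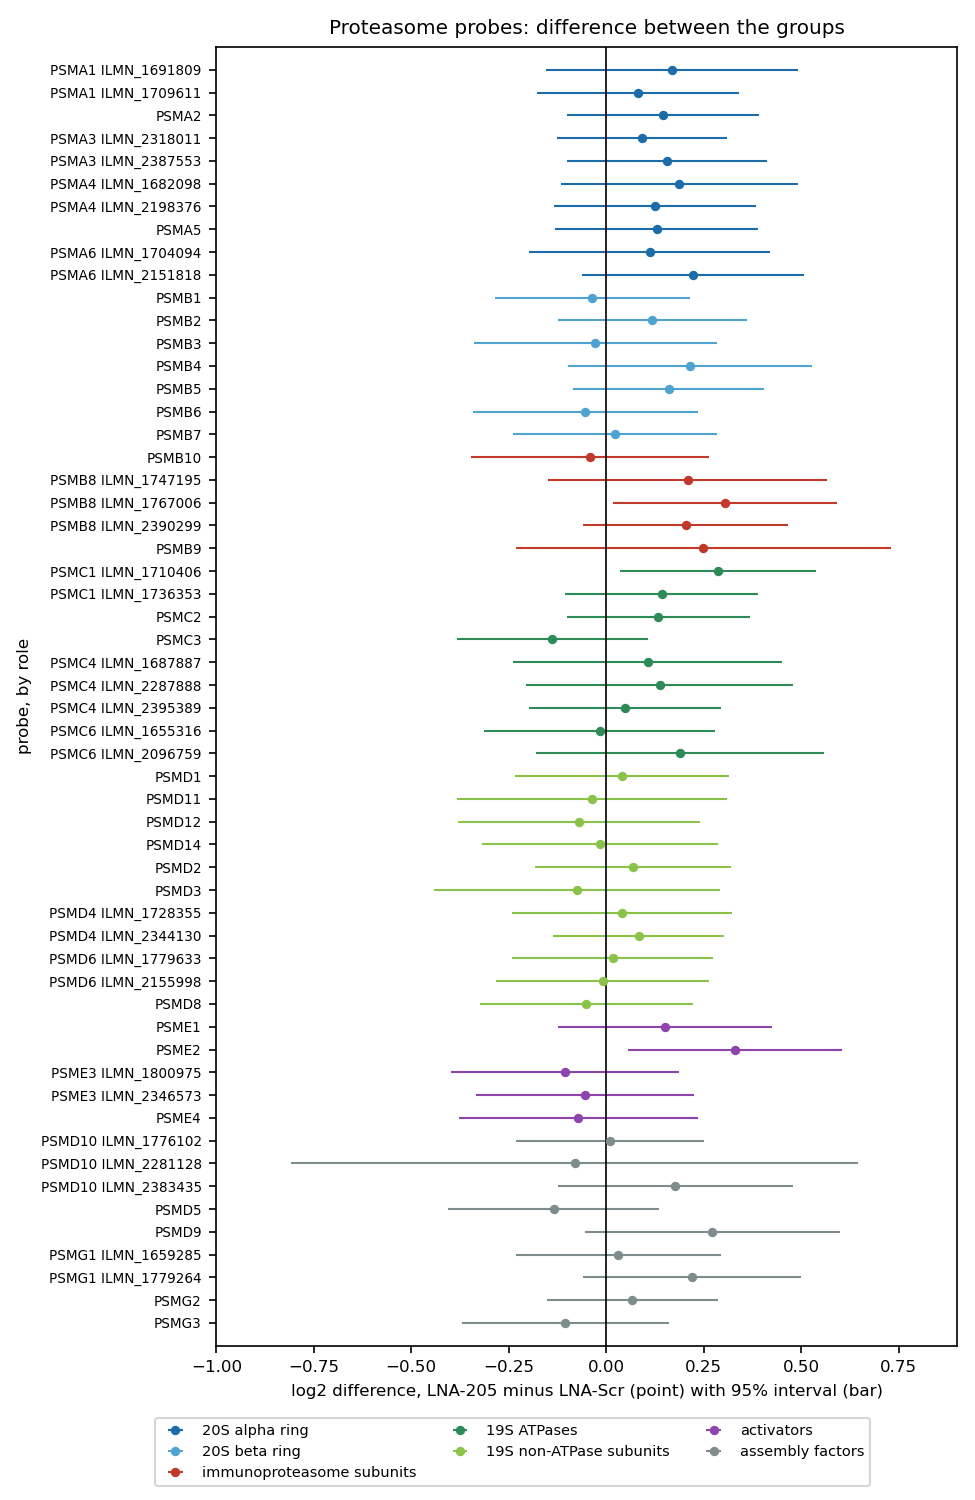
Difference between the groups for each of the 56 proteasome probes, ordered by role; points are log2 differences, LNA-205 minus LNA-Scr, and bars are 95% intervals from limma. The intervals of 3 probes, of PSME2, PSMB8 and PSMC1, leave out 0, and every interval lies inside 2-fold either way.

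The intervals bound how large a difference these arrays leave room for. The 95% interval lay inside 1.5-fold in either direction for 51 of the 56 probes, and inside 2-fold for all 56.  The 5 probes whose interval reached past 1.5-fold were those of PSME2, PSMD9 and PSMB9 and 1 probe each of PSMB8 and PSMD10. The difference between the group means was smaller than the pooled standard deviation of the replicates for 32 of 56 probes, with a median standard deviation of 0.13 on the log2 scale. The plot of differences by role shows the same: most bars cross 0, and the points stay close to it.

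Without the immunoproteasome subunits, 34 of 51 probes had a higher mean with LNA-205 and 17 a lower one, with a median log2 difference of 0.07. Over all probes tested, 49.9% had a higher mean and the median was -0.000325, values that quantile normalization largely fixes. With median scaling instead, 31 of the 51 probes had a higher mean, with a median of 0.04, against -0.01 over all probes. Several probes read the same gene: with the brightest probe of each of the 40 genes, 24 were higher and 16 lower, with a median of 0.04. The groups did not overlap at 8 of 56 probes (14.3%), against 11.9% of all probes. Of these, 7 were higher with LNA-205 (12.5%, against 6.26% of all probes), read by 1 probe each of PSMA3, PSMB5, PSMB8, PSMC1, PSMD4, PSME2 and PSMG2. Only PSMC3 was lower in this way (1.79%, against 5.68%). With 1 array left out, groups of 3 and 2 arrays are compared, and more probes separate. Of the 56 probes, 22 did not overlap without LNA-Scr A, when 22.5% of all probes did not. The count was 12 without LNA-Scr B (21.2% of all probes) and 18 without LNA-Scr C (23.5%). It was 10 without LNA-205 D (21.8%), 14 without LNA-205 E (20.01%) and 16 without LNA-205 F (23.3%). The members' share was thus above that of all probes without LNA-Scr A, and below it without LNA-205 D.

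The arrays of a group also differed among themselves. For each array, the median over probes of the deviation from the probe's own mean was taken. Over the 51 constitutive probes it was 0.04 for A, -0.09 for B and -0.04 for C, and 0.08 for D, 0.03 for E and 0.01 for F, so that LNA-Scr A lay above LNA-205 E and F. Over all probes tested no array departed from 0 by more than 0.0051. Quantile normalization holds that value near 0, so it is no measure of how far sets of similar brightness depart. Such sets were not compared. Array D held the highest value for 20 of the 56 probes and array B the lowest for 22. What else differed between arrays B and D was not tested.

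**Figure D2:**
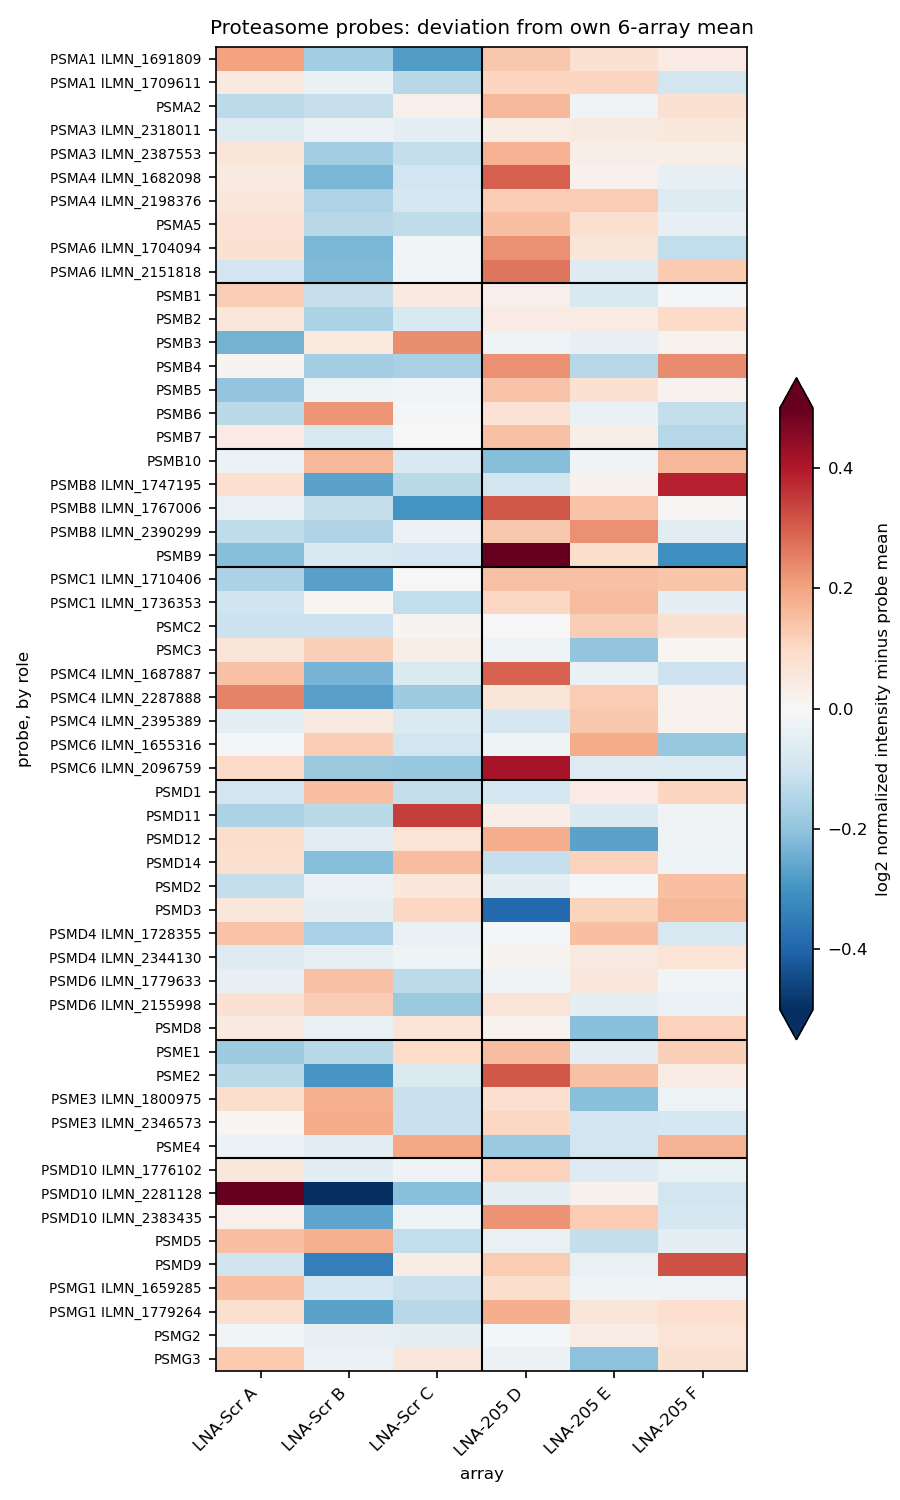
Deviation of each array from the mean of the 6 arrays for each proteasome probe, in log2 units, with LNA-Scr arrays A to C on the left and LNA-205 arrays D to F on the right; colours saturate at 0.5 either way. Array B is mostly below the probe means and array D mostly above them, whereas array A is mixed.

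**Figure D3:**
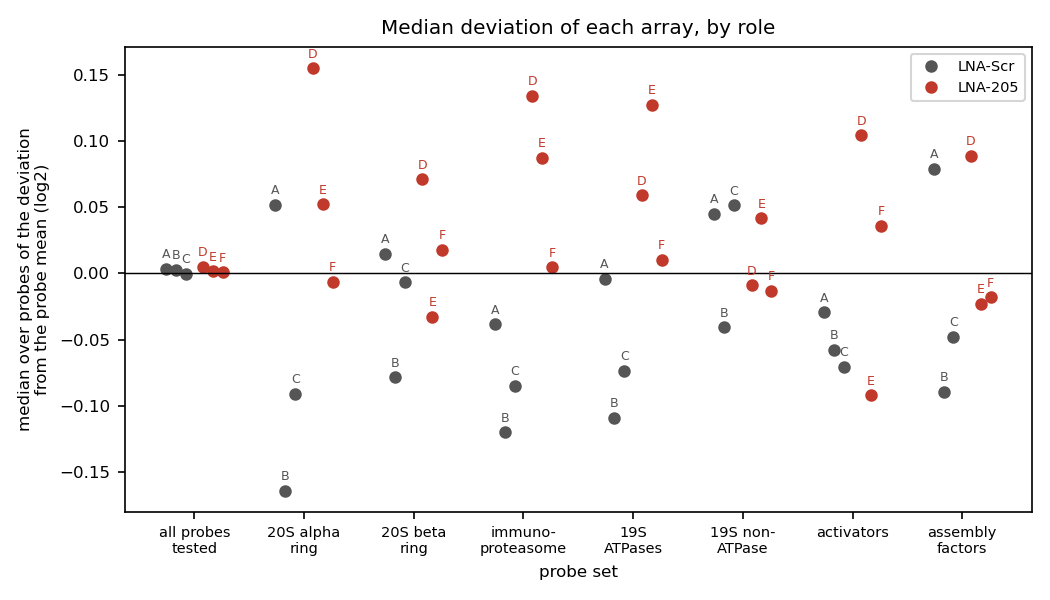
Median over the probes of each role of the deviation from the probe mean (log2, y axis), 1 point per array and letter, with LNA-Scr in grey and LNA-205 in red. Arrays A and E share almost the same value for the alpha ring. The groups are apart for the immunoproteasome, where 3 of 5 probes read PSMB8, and narrowly for the ATPases (-0.004 for A, 0.010 for F). They overlap for the other roles, and how often sets of probes separate in this way was not counted. All probes tested lie at 0, where quantile normalization holds them.

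The immunoproteasome subunits were read by 5 probes, 4 with a higher mean with LNA-205, with a median log2 difference of 0.21. They are compared with their constitutive counterparts because the inducible and constitutive forms take the same places in the beta ring. PSMB8, the inducible chymotrypsin-like subunit, was read by 3 probes. The probe ILMN_1767006 had log2 normalized intensities of 10.21, 10.13 and 9.95 with LNA-Scr and 10.56, 10.39 and 10.26 with LNA-205. Every LNA-205 array lay above every LNA-Scr array. The means were 10.10 ± 0.13 and 10.40 ± 0.15 (SD, n = 3 each). The log2 difference was 0.30 (SE 0.13, 95% interval 0.02 to 0.59, limma adjusted p = 0.795). The probe ILMN_2390299 gave 11.23, 11.21 and 11.33 against 11.49, 11.58 and 11.30. LNA-205 F fell within the control range, and the difference was 0.20 (SE 0.11, limma adjusted p = 0.822). At the probe ILMN_1747195 the values were 9.94, 9.59 and 9.72 against 9.76, 9.88 and 10.24, so the groups overlapped, with a difference of 0.21 (SE 0.16, limma adjusted p = 0.870). All 3 probes thus had a higher mean with LNA-205, but the order of arrays D, E and F was not the same at any pair of them.

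PSMB9, which takes the place of PSMB6, had values of 9.01, 9.15 and 9.14 with LNA-Scr and 9.82, 9.31 and 8.92 with LNA-205. The LNA-205 arrays spanned both sides of the controls, with the highest value on D and the lowest of all 6 on F. The difference was 0.25 (SE 0.21, 95% interval -0.23 to 0.73, limma adjusted p = 0.890). It was 0.01 without LNA-205 D and 0.46 without LNA-205 F. PSMB10, which takes the place of PSMB7, had 12.36, 12.56 and 12.32 with LNA-Scr and 12.18, 12.37 and 12.56 with LNA-205. Its groups covered the same range, with a difference of -0.04 (SE 0.13, 95% interval -0.35 to 0.26). The immune markers CD14 and CD68, each read at its brightest probe, also had higher means with LNA-205. CD14 ranged from 7.28 to 7.97 with LNA-Scr and from 7.88 to 7.98 with LNA-205, a difference of 0.31 (SE 0.17), and CD68 from 11.72 to 11.90 and from 11.92 to 12.12, a difference of 0.20 (SE 0.11). A second CD68 probe gave 0.01 (SE 0.12), with groups that overlapped. Neither gene passed the test, the other 6 immune markers were not kept, and the part of these markers in the PSMB8 and PSMB9 values was not tested.

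The constitutive catalytic subunits had log2 differences from -0.05 to 0.16. PSMB5, the chymotrypsin-like subunit, had 12.69, 12.86 and 12.87 with LNA-Scr and 13.03, 12.97 and 12.91 with LNA-205. The groups did not overlap, by a margin of hundredths of a log2 unit, and the difference was 0.16 (SE 0.11, limma adjusted p = 0.854). PSMB6, the caspase-like subunit, had 13.28, 13.64 and 13.41 against 13.49, 13.38 and 13.30, a difference of -0.05 (SE 0.13). PSMB7, the trypsin-like subunit, had 14.66, 14.54 and 14.62 against 14.77, 14.65 and 14.48, a difference of 0.02 (SE 0.11). The change in the log2 ratio of inducible to constitutive subunit, LNA-205 minus LNA-Scr, was 0.08 for PSMB8 to PSMB5, 0.30 for PSMB9 to PSMB6 and -0.06 for PSMB10 to PSMB7. The 3 pairs gave p = 0.5, 0.3 and 1 in a two-sided exact permutation test, which with 3 arrays a group cannot go below 0.1, and the groups overlapped in all 3.

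**Figure D4:**
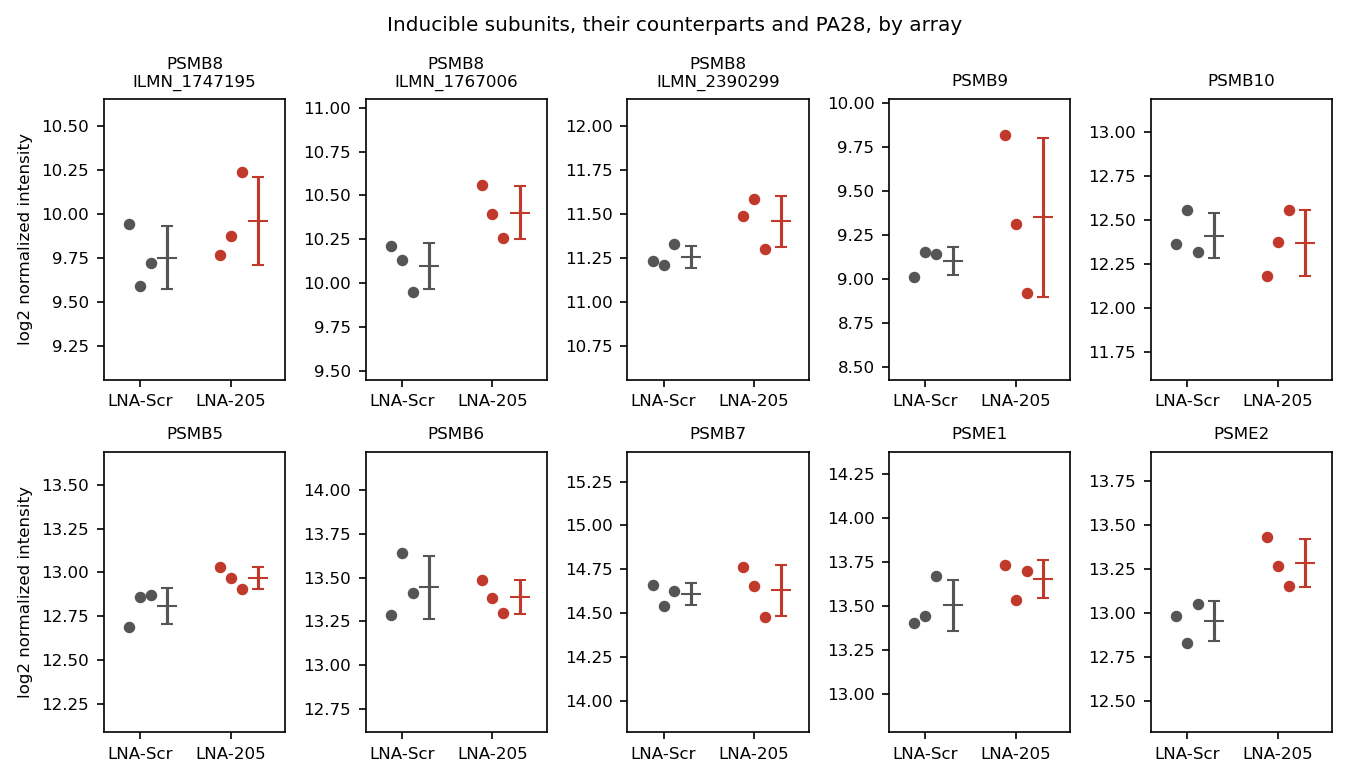
Log2 normalized intensity of the inducible subunits, their constitutive counterparts and the PA28 subunits on each array; points from left to right are arrays A, B, C (LNA-Scr, grey) and D, E, F (LNA-205, red), and bars are the mean ± SD. Each panel spans the same number of log2 units, and only PSME2, PSMB5 and the PSMB8 probe ILMN_1767006 have groups that do not overlap.

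Among the activators was the member with the largest difference. PSME2, the beta subunit of PA28, had 12.98, 12.83 and 13.05 with LNA-Scr and 13.43, 13.27 and 13.15 with LNA-205. All LNA-205 arrays were above all control arrays, and the means were 12.95 ± 0.11 and 13.28 ± 0.14 (SD, n = 3 each). The log2 difference was 0.33 (SE 0.12, 95% interval 0.06 to 0.60, limma adjusted p = 0.772), which ranked 414 of 13423 probes by p. Its partner PSME1, the alpha subunit of the same ring, had 13.40, 13.44 and 13.67 against 13.73, 13.53 and 13.70. LNA-Scr C lay among the LNA-205 arrays, and the difference was 0.15 (SE 0.12). PSME3, the nuclear activator PA28 gamma, which is not part of the interferon-induced ring, had differences of -0.11 (SE 0.13) and -0.05 (SE 0.12) at its 2 probes, and PSME4, the activator PA200, had -0.07 (SE 0.13). The groups overlapped at these 3 probes. The only probe for the inhibitor PSMF1 was detected on 0 of 6 arrays. As RNA came from whole cultures, a change in the share of cells that use a gene and a change in its RNA per cell cannot be told apart here.

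The alpha ring was the role in which every probe had a higher mean with LNA-205: 10 of 10 probes of 6 genes, with a median log2 difference of 0.14 and a range from 0.08 to 0.22. These subunits form the gate of the core and interact with its caps. PSMA7 had no probe assigned to it and is not among the 6 genes. PSMA6 (ILMN_2151818) had 14.26, 14.13 and 14.34 with LNA-Scr and 14.62, 14.29 and 14.49 with LNA-205. LNA-205 E fell within the control range, and the difference was 0.22 (SE 0.12, limma adjusted p = 0.820). PSMA4 (ILMN_1682098) had 12.42, 12.14 and 12.28 against 12.67, 12.40 and 12.33, with E and F below LNA-Scr A and a difference of 0.19 (SE 0.13). PSMA3 (ILMN_2387553) had 12.87, 12.63 and 12.69 against 12.98, 12.84 and 12.84, again with only D above LNA-Scr A, and a difference of 0.16 (SE 0.11). Its second probe (ILMN_2318011) was the only alpha ring probe whose groups did not overlap. That probe had 11.41, 11.45 and 11.43 against 11.51, 11.52 and 11.53, a difference of 0.09 (SE 0.09). PSMA1, PSMA2 and PSMA5 had differences from 0.08 to 0.17, with groups that overlapped. By array, LNA-Scr A was above its own probe means at 7 of 10 alpha ring probes, against 0 for B and 1 for C, and LNA-205 D was above them at 10, E at 8 and F at 5.

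In the rest of the beta ring, PSMB4, a structural subunit, had 12.75, 12.56 and 12.57 with LNA-Scr and 12.96, 12.59 and 12.97 with LNA-205. Array E was level with the controls, and the difference was 0.21 (SE 0.14, limma adjusted p = 0.843). The structural subunits PSMB2, PSMB1 and PSMB3 had differences of 0.12 (SE 0.11), -0.04 (SE 0.11) and -0.03 (SE 0.14). Over all 7 constitutive beta probes, 4 had higher and 3 lower means, with a median of 0.02.

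Of 9 probes for the ATPases of the 19S base, 7 had higher means with LNA-205, with a median log2 difference of 0.13. No probe was assigned to PSMC5. PSMC1 (ILMN_1710406) had 13.88, 13.77 and 14.04 with LNA-Scr and 14.19, 14.19 and 14.18 with LNA-205. The LNA-205 arrays were nearly equal and all above the controls. The means were 13.90 ± 0.14 and 14.19 ± 0.01 (SD, n = 3 each), and the difference was 0.29 (SE 0.11, 95% interval 0.04 to 0.54, limma adjusted p = 0.775). The second PSMC1 probe gave 13.87, 13.98 and 13.85 against 14.08, 14.13 and 13.93, with F below LNA-Scr B and a difference of 0.14 (SE 0.11). PSMC3 was the member with the lowest ratio: 12.53, 12.59 and 12.50 with LNA-Scr against 12.45, 12.28 and 12.48 with LNA-205. Its LNA-205 arrays all lay below the controls, and the difference was -0.14 (SE 0.11, 95% interval -0.38 to 0.11, limma adjusted p = 0.876). PSMC2 had a difference of 0.13 (SE 0.10), the 3 probes of PSMC4 had differences from 0.05 to 0.14, and the 2 probes of PSMC6 differed in sign, at -0.02 (SE 0.13) and 0.19 (SE 0.16).

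The non-ATPase subunits of the 19S particle, which hold its scaffold, ubiquitin receptors and deubiquitinase, had means on both sides of the controls. Of 11 probes, 5 had higher and 6 lower means, with a median log2 difference of -0.01 and a range from -0.07 to 0.08. PSMD4, a ubiquitin receptor, had 11.85, 11.87 and 11.89 with LNA-Scr and 11.92, 11.96 and 11.98 with LNA-205 at ILMN_2344130. These groups did not overlap, yet the difference was only 0.08 (SE 0.10), and the other PSMD4 probe gave 0.04. PSMD2, a scaffold subunit of the base, had a difference of 0.07 (SE 0.11), and PSMD1, the other large scaffold subunit, had 0.04 (SE 0.12). PSMD3 had 9.91, 9.81 and 9.96 against 9.47, 9.97 and 10.02, a difference of -0.07 (SE 0.16) that was 0.10 without LNA-205 D. PSMD12 and PSMD8, both subunits of the lid, had differences of -0.07 (SE 0.13) and -0.05 (SE 0.12). PSMD14, the deubiquitinase of the lid, had -0.02 (SE 0.13), PSMD11 had -0.04 (SE 0.15), and the 2 probes of PSMD6 had 0.02 and -0.01.

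The assembly factors help to build the core or the 19S base and leave the finished particle. PSMG1 and PSMG2 form a chaperone pair for the alpha ring. At ILMN_1779264, PSMG1 had 13.22, 12.87 and 13.00 with LNA-Scr and 13.32, 13.20 and 13.22 with LNA-205, so that LNA-Scr A matched arrays E and F, and the difference was 0.22 (SE 0.12, limma adjusted p = 0.817). At its second probe the difference was 0.03 (SE 0.11). PSMG2 had 12.80, 12.77 and 12.76 against 12.81, 12.85 and 12.88. These groups were separated by a narrow margin, with a difference of 0.07 (SE 0.10). PSMG3, of a further chaperone pair, had 10.34, 10.18 and 10.27 against 10.18, 10.01 and 10.29, a difference of -0.10 (SE 0.12). Among the chaperones of the base, PSMD9 had 9.19, 8.95 and 9.32 against 9.42, 9.25 and 9.61, a difference of 0.27 (SE 0.14, limma adjusted p = 0.804). PSMD5 had 9.64, 9.66 and 9.36 against 9.45, 9.37 and 9.44, a difference of -0.14 (SE 0.12). The 3 probes of PSMD10, the oncoprotein gankyrin, gave -0.08 (SE 0.32), 0.01 and 0.18 (SE 0.13). The first of these rested on a wide control spread, with 9.70, 8.29 and 8.62 with LNA-Scr against 8.78, 8.85 and 8.74, and was 0.34 without LNA-Scr A.

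Of the 13 genes read by several kept probes, 10 had the same sign at all their probes, and PSMC6, PSMD10 and PSMD6 did not. The median distance between the highest and lowest probe of a gene was 0.09, close to the median size of a difference over all probes tested, 0.11. The 9 probes of the 6 genes with GAAANNGAAA in a window had a median log2 difference of 0.20, with 8 higher, and a range from -0.04 to 0.33. Of these probes, 3 read the single gene PSMB8, with differences from 0.20 to 0.30. The other 41 probes of genes with a window had a median of 0.07, with 27 higher. For TGACNNNGC, the core of the antioxidant response element through which NFE2L1 drives proteasome genes, 14 of 35 genes (40%) held a match, against 16.1% of all genes. Their 18 probes had a median of 0.09, and the 32 probes of genes without it had 0.11. The CCAAT box, a further promoter motif searched, was found in 17 of 35 genes (48.6%), against 39.7% of all genes. The 24 probes of genes with it had a median of 0.06, with 15 higher. The 26 probes of genes without it had a median of 0.12, with 20 higher. These letters occur often in windows of this length, and a match is a description of sequence only.

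Genes that work with the proteasome but carry other symbols were described from lists, each by its brightest kept probe. None of their measured genes passed an adjusted p of 0.05 in limma's test, and NGLY1, UBB, RAD23B and IRF1 were those with an unadjusted p under 0.05. Among 12 partners, such as docking deubiquitinases and chaperones, 6 had higher and 6 lower means. POMP, the maturation factor of the core, had 13.98, 14.12 and 14.29 with LNA-Scr and 14.50, 14.42 and 14.15 with LNA-205, a difference of 0.23 (SE 0.14). F lay within the control range. USP14, a deubiquitinase that docks on the 19S base, had 11.53, 11.54 and 11.36 against 11.34, 11.25 and 11.23, with the LNA-205 arrays all lower and a difference of -0.20 (SE 0.11), while its second probe gave -0.06. PAAF1, which binds the 19S ATPases, had a difference of 0.18 (SE 0.15), and AKIRIN2, a factor for nuclear import of proteasomes, had -0.17 (SE 0.12).

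Of 9 genes that control transcription of the proteasome, the arrays measured 6, of which 5 had a higher mean and 1 a lower one, with a median log2 difference of 0.10. NFE2L1, the factor that raises proteasome genes when the protease is blocked, had 10.43, 10.51 and 10.79 against 10.69, 10.70 and 10.94, so LNA-Scr C overlapped the LNA-205 arrays (difference 0.20, SE 0.14). NGLY1, the enzyme that strips its sugars, had 9.24, 8.89 and 8.86 against 9.58, 9.37 and 9.15, where F fell below LNA-Scr A (difference 0.37, SE 0.16, limma adjusted p = 0.795). MAFG had -0.04 and -0.17 at its 2 probes. MAFF, counted as higher by its brightest probe (0.06), had -0.21 and -0.12 at its other probes. Of 18 ubiquitin and shuttle genes the arrays measured 13, with 4 means above the controls and 9 below. UBB, a polyubiquitin gene, had 14.82, 14.52 and 14.82 against 15.08, 14.98 and 14.97, all higher with LNA-205 (difference 0.29, SE 0.12, and 0.27 at its second probe). RAD23B, which carries ubiquitinated proteins to the proteasome, had 11.68, 11.58 and 11.74 against 11.41, 11.49 and 11.38, all lower (difference -0.24, SE 0.10, limma adjusted p = 0.795). UBQLN1, another shuttle, had a difference of 0.09 (SE 0.10), with 0.26 and 0.08 at its other probes, and UBA1, the ubiquitin-activating enzyme, had -0.19 (SE 0.14) and 0.21 (SE 0.12) at its 2 probes.

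For class I loading and its interferon regulators, which cross the immunoproteasome, the arrays measured 14 of 19 listed genes, of which 9 had a higher mean and 5 a lower one, with a median log2 difference of 0.10. IRF1, an activator of the inducible subunits, had 10.50, 10.66 and 10.69 with LNA-Scr and 10.84, 10.93 and 10.81 with LNA-205, all higher (difference 0.24, SE 0.11, limma adjusted p = 0.795). TAP1, the peptide transporter subunit next to PSMB8 and PSMB9, had 11.38, 11.72 and 11.52 against 11.58, 11.94 and 11.52, and the groups overlapped (difference 0.14, SE 0.15). B2M had a difference of 0.21 (SE 0.10), and 0.06 at its second probe, whereas HLA-C had -0.27 (SE 0.19) and HLA-E -0.14 (SE 0.10). The means of the measured class I genes thus lay on both sides of the controls.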

How the data were processed

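Total RNA of 6 RWPE-1 cultures was read on single-colour Illumina bead arrays. The authors deposited unnormalized values with a detection p-value for each probe and array, per the file headers, and separately log2 processed values, for which the submitters' processing notes name lumi without a version or method. The unnormalized values were on the log2 scale too, as their antilogs lay within 0.00025 of a number with 1 decimal. The unnormalized log2 values of 48799 probes were first turned back into linear intensities. These were background-corrected from the detection p-values, given an offset of 16, quantile-normalized and log2-transformed (neqc, limma 3.58.1, R 4.3.3). Quantile normalization removes any shift shared by all genes. Probes detected at p under 0.01 on 3 or more of 6 arrays were fitted with lmFit and eBayes (two-sided, group only), each probe as its own feature, with Benjamini-Hochberg adjustment over all 13423. Levels of different probes are not comparable. Arrays have no read depth, and their number limits the precision. Python 3.11.15, pandas 2.3.3, scipy 1.17.1 and matplotlib 3.10.9 served the motif search, the permutation tests and the plots. The fit was tested on simulated data.

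Symbols came from the platform annotation, updated through RefSeq for 28056 probes; 28095 probes had 1 symbol, 13 several and 20691 none listed here. No probe was assigned to PSMA7, PSMC5, PSMD7, PSMD13 or PSMG4, so these genes were not analysed here. The members and lists were chosen with earlier results of these data known. Named were all probes of the inducible subunits, their counterparts, activators, inhibitor and PSMG factors; in the other roles the 3 probes of smallest p in each direction and genes whose probes differ in sign; and from other lists the 2 genes of smallest p in each direction. Further members, TAP1 and the second probes were named to account for all members or as neighbours, after their values were seen. Alternatives changed the background correction, normalization, offset, filter, probe choice, variance trend and arrays used.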

Additional observations from a re-analysis of the deposited data

How the results depend on the processing

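Under all 15 alternatives, 0 proteasome probes passed an adjusted p of 0.05 in limma's test, with the smallest adjusted p of a member between 0.561 and 0.941. In the main setting 3 had an unadjusted p under 0.05. That last count was 5 with a variance trend, and 2 with median scaling, with the brightest probe per gene or without LNA-205 E. It was 6 without LNA-Scr A, 4 without LNA-205 F, 0 without LNA-Scr B or without LNA-205 D, and 3 under the other alternatives. The share of all probes at that limit was not counted for these alternatives, so the changes in the count have no background beside them. The median log2 difference of the constitutive probes stayed above 0, between 0.04 and 0.10. For the immunoproteasome probes it was 0.21, from 0.18 to 0.28 when single arrays were left out, with the highest value without LNA-205 F. The count of probes whose groups do not overlap was 8. It was 5 of 40 with the brightest probe per gene, when 12.2% of the brightest probes of all genes did not overlap. With 1 array left out it lay between 10 and 22 of 56. Without LNA-Scr A it was 22 (22.5% of all probes), without LNA-Scr B 12 (21.2%) and without LNA-Scr C 18 (23.5%). Without LNA-205 D it was 10 (21.8%), without LNA-205 E 14 (20.01%) and without LNA-205 F 16 (23.3%). Fewer arrays make separation easier, but the members' share without LNA-Scr A was above that of all probes. Of 56 probes, 22 changed sign under at least 1 alternative and 34 under none, among them all 10 alpha ring probes and those of PSMB8, PSMB9, PSME1 and PSME2. No paired analysis was made because the labels name no pairing, so whether arrays of the groups were paired is not known. With 3 arrays a group, the precision is that of the intervals given.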

Other observations

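The symbol pattern also caught genes that are no proteasome genes. PSMC3IP, a recombination cofactor named for binding PSMC3, had 2 kept probes with log2 differences of opposite sign, -0.24 (SE 0.11, limma adjusted p = 0.799) with all LNA-205 arrays lower, and 0.20 (SE 0.13). PSME3IP1, named for binding PSME3, had 0.02.

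Among NRF2 target genes, the arrays measured 7 of 10 listed, of which 5 had a higher mean with LNA-205 and 2 a lower one. None passed an adjusted p of 0.05 in limma's test, and TXNRD1 alone had an unadjusted p under 0.05. TXNRD1, a thioredoxin reductase, had log2 normalized intensities of 11.59, 11.60 and 11.52 with LNA-Scr and 11.94, 11.94 and 11.85 with LNA-205. The groups did not overlap, and the difference was 0.34 (SE 0.10, 95% interval 0.12 to 0.57, limma adjusted p = 0.743), with 0.33 at its second probe. HMOX1, heme oxygenase, had 0.48 (SE 0.24) with a control SD of 0.54, while NQO1 had -0.11 and -0.03 at its 2 probes and SRXN1 had -0.04.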
